A study of Mus musculus with 32 samples.

Results

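The comparison described here is that of livers 2 weeks after a 70% partial hepatectomy on a methionine- and choline-deficient (MCD) diet with livers of mice on that diet that had not been operated. It rests on 4 livers in each group, 8 of the 32 livers that were hybridised in the whole series, and none of the 8 mice received the agonist of the GLP-1 and glucagon receptors that other groups were given. The mice were male C57/BL6, and the labels spell the diet both as methionine and choline deficient and as methyl and choline deficient. Baseline mice ate it for 3 weeks. Operated mice ate it for 3 weeks, lost 70% of the liver, ate it for another 2 weeks and were then killed, so that surgery comes together with a longer time on the diet. Sham-operated livers were not analysed here. For comparison, the same contrast was taken on standard diet (4 livers before and 4 after surgery, no agonist) and on MCD diet in mice given the agonist at 4.4 mg/kg/day (again 4 and 4). Per the labels, the baseline mice of the agonist contrast were treated for 2 weeks. The operated ones were treated for 2 weeks before and 2 weeks after surgery, so that surgery comes together with longer treatment there. The series describes the livers as independent, 1 array per liver.

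The arrangement of the arrays limits every value below. The 4 baseline MCD livers lie in row 2 of slide 1 and the 4 operated MCD livers in row 1 of slide 4, read with different scanners in different sessions. Surgery, the longer diet, slide, row, scanner and session therefore cannot be told apart in the MCD contrast. The standard-diet livers before (slide 1, row 1) and after surgery (slide 3, row 1) span the same 2 sessions. In the difference between the 2 diets' contrasts, called the diet-by-hepatectomy difference below, a session effect that adds equally to both diets drops out, while an effect of slide or row does not.

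Groups were taken from the scanner files and their labels. In the deposited table of processed values, 16 of the 32 columns matched best with an array of another group, and the MCD livers were exchanged there with those of the standard diet plus agonist, before and after surgery alike. On the scanner arrays, those labelled MCD diet were higher than those labelled standard diet at baseline by 5.65 on the log2 scale for Cyp2b9 and by 4.34 for Afp, and lower by 2.43 for Scd1 (-2.43). Hepatocyte markers were high in both MCD groups: Alb, which encodes albumin, had a mean log2 level of 9.93 ± 0.15 before and 10.01 ± 0.19 after surgery (SD, n = 4 each), and none of the 15 hepatocyte markers passed the test (limma, 0 at an unadjusted p under 0.05).

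After partial hepatectomy the remaining rodent liver regrows to about its former mass within days, through a wave of DNA replication and mitosis that inflammatory cytokines prime and that growth factors such as HGF and EGF ligands drive. Hepatocytes keep secreting plasma proteins meanwhile, and the acute phase response raises many of them under control of interleukin 6 and STAT3. A diet without methionine and choline hinders the export of fat as lipoprotein and produces a fatty, inflamed liver, in which repair has to take place in diseased tissue.

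A level here is log2 of the processed spot signal minus the 75th percentile of its array, so that 0 is a bright spot and -5 lies close to background. Differences are after minus before surgery on this log2 scale, and a gene "rose" or "fell" when limma's Benjamini-Hochberg adjusted p over all 21735 genes tested was under 0.05. Between 53.7% and 59.0% of spots were well above background on the 4 baseline MCD arrays and between 45.7% and 58.1% on the 4 operated ones. Correlations between arrays over all genes were 0.981 to 0.985 within the baseline group, 0.971 to 0.983 within the operated group and 0.961 to 0.969 between them. Of all genes tested, 1412 (6.50%) rose and 653 (3.00%) fell, 9.50% in all, with a median difference of -0.02 over all genes. Scaling the arrays to their medians in place of the 75th percentile turned this into 899 rises and 813 falls, so the balance of directions depends on the scaling. The 4 and 4 arrays did not overlap for 1251 of the genes that rose and 548 of those that fell; over all genes, 10.8% were higher and 8.29% lower without overlap. The genes that rose were dim, with a median level of -1.59 over the 8 arrays against 0.14 for genes that did not pass, and 45.8% of them carried a symbol found in the reference table, against 75.2% of those that fell and 71.8% of the rest.

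The clearest group among the rises was neutrophil genes, which encode granule proteases, calprotectin and other products of these first-line phagocytes. Of 16 neutrophil markers tested, 9 rose and 0 fell, against 6.50% of all genes rising, and all 16 differences were positive with a median of 2.98. The calls spanned 1.61 to 4.84, and 8 of the 16 markers lay higher without overlap, as did 10.8% of all genes. The mean of the markers after centring each gene was 0.08, -1.73, 0.06 and -0.06 on the 4 MCD arrays and 1.42, 2.08, 2.52 and 2.87 on the 4 operated ones. The second baseline array was thus low for the whole set, and without it 4 markers rose. In whole-liver RNA, more neutrophils and more of these transcripts per cell cannot be told apart.

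Prtn3, which encodes the granule serine protease proteinase 3 (probe within chr10:79343869-79344685, mm9), had levels of -3.38, -4.36, -3.82 and -3.69 before surgery and 0.99, 0.45, 1.41 and 1.25 after it. All operated livers lay far above all baseline livers, of which only 2 showed the probe above background. The difference was 4.84 ± 0.68 (SE), 28.6-fold, with an adjusted p of 8.3e-05. S100a8, a subunit of calprotectin (probe chr3:90473778-90473837), stood at 0.63, -0.84, -0.01 and 1.35 before and 3.65, 3.41, 4.10 and 4.94 after surgery. Its groups did not overlap, and it rose by 3.74 ± 0.65, 13.4-fold (adjusted p = 0.00063). S100a9, the other calprotectin subunit, went from 3.83, 1.66, 3.68 and 4.18 to 5.15, 6.55, 6.35 and 6.72, a rise of 2.86 ± 0.63 (adjusted p = 0.0043). The second baseline liver was again the lowest, and the lowest operated liver still exceeded the highest baseline one. Retnlg, a resistin-like protein of myeloid cells, was at -3.30, -3.54, -1.85 and -1.87 before and 0.06, 0.20, 0.18 and 1.45 after surgery, a rise of 3.11 ± 0.73 (adjusted p = 0.0069). Prtn3, S100a8, S100a9 and Retnlg kept their calls with each array left out and under every other setting tried. Chil3, a chitinase-like secretory protein of myeloid cells, rose by 3.73 ± 1.13 (adjusted p = 0.033), but lost the call without any single one of the 8 arrays (highest adjusted p 0.11).

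On standard diet 5 of the 16 neutrophil markers rose (6.32% of all genes rose there), with a median of 1.59, and in MCD mice given the agonist 1 rose (3.74% of all genes rose there), with a median of 0.85. None passed as a diet-by-hepatectomy difference. S100a8 rose by 3.79 on standard diet, where its baseline level was lower, and Prtn3 by 3.74. At baseline S100a8 was already 3.06 higher on MCD diet than on standard diet, a contrast that shares the baseline MCD arrays, whereas Prtn3 differed there by 0.01.

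**Figure D1:**
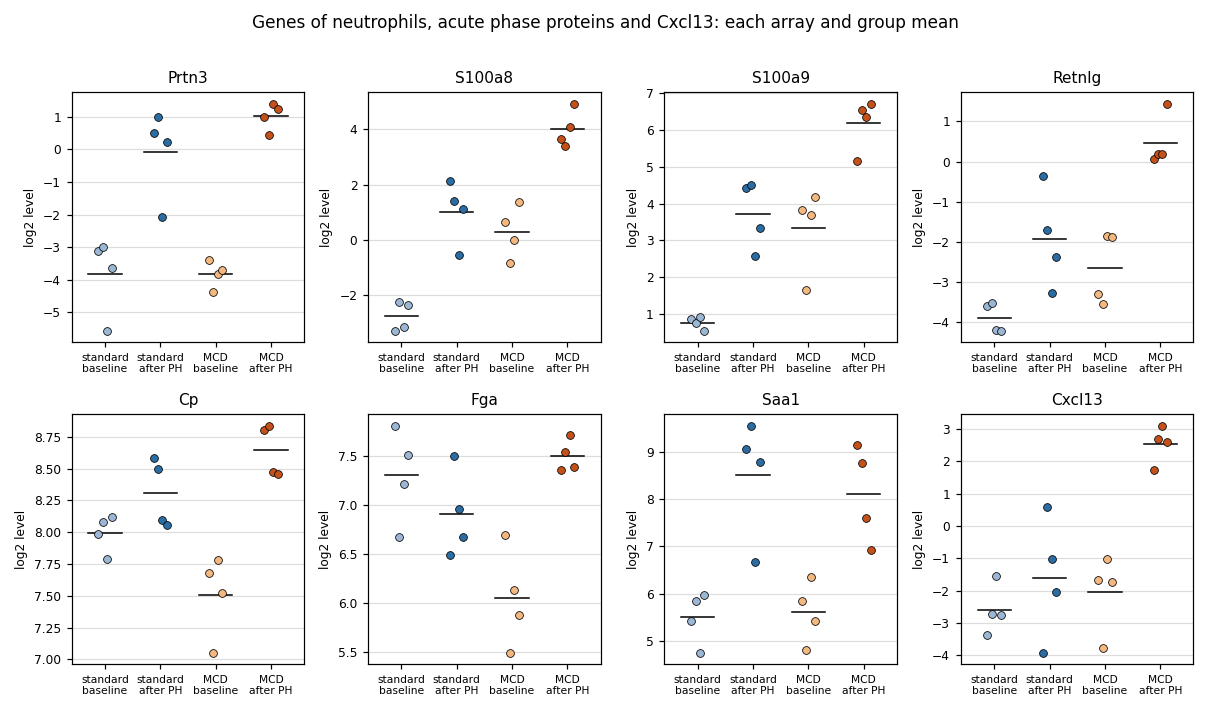
Log2 level, relative to each array's 75th percentile, of 8 genes that rose after hepatectomy on MCD diet, with one dot per liver and a bar at the mean of the 4 livers; the panels give standard and MCD diet before and after partial hepatectomy (PH). In the Prtn3 panel the operated MCD livers lie between 0.45 and 1.41 and the baseline MCD livers between -4.36 and -3.38; the 4 operated standard-diet livers are spread more widely.

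Acute phase proteins, which hepatocytes secrete during inflammation, were the other large group of rises. Of 26 members 9 rose and 1 fell, where 6.50% of all genes rose and 3.00% fell. The median was 1.04, 22 differences were positive, and 16 members lay higher without overlap, as did 10.8% of all genes. On standard diet 6 rose and 0 fell, where 6.32% of all genes rose and 7.45% fell, and the median was 0.25. With the agonist 0 rose and 2 fell, where 3.74% of all genes rose and 6.32% fell, and the median was 0.24. Fga, the alpha chain of fibrinogen, moved from 6.70, 5.49, 6.13 and 5.87 to 7.37, 7.55, 7.72 and 7.40. Every operated liver was above every baseline liver, and the spread within the operated group was small (SD 0.16, against 0.51 before). Fga rose by 1.46 ± 0.34 (adjusted p = 0.0063) and was at -0.40 on standard diet (adjusted p = 0.45), and the diet-by-hepatectomy difference of 1.86 passed (adjusted p = 0.036). Cp, the copper-carrying ferroxidase ceruloplasmin, stood at 7.68, 7.05, 7.78 and 7.52 before and 8.80, 8.84, 8.47 and 8.46 after surgery. It rose 2.19-fold (log2 1.13 ± 0.22, adjusted p = 0.0017) without overlap, and kept the call with each array left out, but not when the probes of a gene were averaged.

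The serum amyloid gene Saa1, a lipoprotein-bound acute phase protein, was at 5.85, 4.81, 6.36 and 5.42 before and 9.14, 8.77, 7.60 and 6.92 after surgery. All operated livers were higher, by 2.50 ± 0.77 on average (adjusted p = 0.038), with operated livers 1 and 2 well above 3 and 4. Orm1 and Orm3, orosomucoids that bind lipophilic compounds in plasma, rose by 1.33 ± 0.35 (adjusted p = 0.016) and 3.54 ± 0.97 (adjusted p = 0.019). The Orm genes are close copies, so a probe may read more than 1 of them. These calls depended on single livers: Saa1 lost its call in 6 of the 8 fits that leave out 1 array (highest adjusted p 0.12), Orm1 without baseline liver 2 or operated liver 2, and Orm3 without baseline livers 2 or 4 or operated liver 2 (highest adjusted p 0.07 for both). The count of rises in the list was 2 without baseline liver 2 or operated liver 2, and 5 without baseline liver 4 or operated livers 1 or 3. Mt1, the metal-binding metallothionein that often moves with the acute phase, had levels of 7.22 to 7.86 before and 9.16 to 9.50 after surgery, a difference of 1.75 that did not pass (adjusted p = 0.12).

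Against the direction of its list, Hamp2, a hepcidin paralogue (probe chr7:31707520-31707579), fell. Its levels were 4.57, 6.08, 5.43 and 5.92 before and 2.37, 2.05, 3.25 and 3.17 after surgery. Every operated liver was below every baseline liver, and the fall of 2.79 on the log2 scale (-2.79 ± 0.58, adjusted p = 0.0026) was kept in every setting. Among 22 genes of metal handling, 3 fell and 0 rose, where 3.00% of all genes fell and 6.50% rose. The list as a whole did not lean down, with 13 positive differences and a median of 0.10. One of the 3 that fell was Id1, a BMP-responsive inhibitor of DNA binding (log2 difference -2.08 ± 0.57, adjusted p = 0.018). Id1 lost its call without baseline liver 4 or operated liver 2 (highest adjusted p 0.07). On standard diet Hamp2 differed by -1.23 (adjusted p = 0.15), and its diet-by-hepatectomy difference of -1.55 did not pass (adjusted p = 0.30).

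Complement and coagulation genes showed no common direction. Of 31 members 1 rose and 2 fell, where 6.50% of all genes rose and 3.00% fell, and the median was 0.21. Mbl2, a mannose-binding lectin that starts the lectin pathway, fell from 6.50, 6.82, 7.34 and 7.05 to 4.64, 4.79, 5.23 and 5.52 (-1.88 ± 0.45, adjusted p = 0.0083). Its groups did not overlap, and it differed by 0.06 on standard diet (adjusted p = 0.95), while the difference between diets of -1.94 did not pass (adjusted p = 0.09).

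The largest rises among named genes without overlap included several outside these lists. Igdcc4, an immunoglobulin-superfamily membrane protein (probe chr9:64985645-64985704), had levels of -4.48, -5.04, -4.06 and -5.43 before surgery and -0.26, 0.95, 1.63 and 1.71 after it. The baseline livers were near background, 2 of 4 above it, and all operated livers were clearly higher, by 5.76 ± 0.97 (adjusted p = 0.00049). On standard diet it differed by 0.93 (adjusted p = 0.55), and the difference between diets of 4.83 had an adjusted p of 0.053. Cxcl13, the chemokine that draws B cells into follicles (probe chr5:96389861-96389920), went from -1.66, -3.77, -1.03 and -1.73 to 1.73, 2.68, 3.11 and 2.61. The groups did not overlap, and Cxcl13 rose 23.9-fold (4.58 ± 0.79, adjusted p = 0.00056). It was the only one of 26 cytokine and chemokine genes tested to rise (6.50% of all genes did). On standard diet 10 of the 26 rose (6.32% of all genes did), and Cxcl13 itself was at 1.00 (adjusted p = 0.41). In MCD mice given the agonist Cxcl13 rose by 3.39 (adjusted p = 0.0078). Of 12 B and plasma cell markers 0 passed in the MCD contrast (limma, 2 at an unadjusted p under 0.05), with a median of 0.12.

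Akr1c18, an enzyme that inactivates progesterone, had the smallest adjusted p among the rises named here. Its levels were -0.90, -1.07, -0.21 and 0.08 before and 2.37, 2.84, 3.26 and 2.93 after surgery, a rise of 3.38 ± 0.38 (adjusted p = 5.4e-06). It rose in the other contrasts too, by 1.50 on standard diet (adjusted p = 0.0093) and by 2.88 with the agonist (adjusted p = 5.0e-05). Rnf138rt1 rose by 4.41 ± 0.93 (adjusted p = 0.0030) and Tmc5, a transmembrane channel-like protein, by 4.35 ± 0.88 (adjusted p = 0.0021), both from levels near background. Dmkn, the secreted epithelial protein dermokine, was not well above background on any baseline array and on all 4 operated ones, and was at least 14.7-fold higher after surgery (adjusted p = 0.00069), a call lost in the processed table (0.73, adjusted p = 0.15). Dpp6, a potassium channel partner, rose by 3.53 (adjusted p = 0.012), with operated liver 2 at 6.26 and the other 3 between -1.57 and -0.87, against -3.06 to -2.57 before surgery. Without operated liver 2 the rise was 1.67 (adjusted p = 0.0023), and the call was lost when only the groups without agonist (adjusted p = 0.068) or only the groups compared (adjusted p = 0.15) were fitted. Marco, a scavenger receptor of Kupffer cells and other macrophages, rose from 4.80, 3.85, 4.02 and 5.41 to 7.34, 7.44, 7.29 and 6.44 (2.61 ± 0.58, adjusted p = 0.0044). The lowest operated liver was above the highest baseline one, and on standard diet Marco rose by 2.27 (adjusted p = 0.010).

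Some markers of tissue next to the liver rose. Of 12 pancreatic acinar markers 3 rose and 0 fell (6.50% of all genes rose), with a median of 0.90. With the agonist 6 of the 12 rose (3.74% of all genes did), with a median of 1.92. On standard diet 0 rose and 1 fell, with a median of -0.37. The list's mean was -0.67 to -0.40 on the baseline and 1.43, 0.59, 0.42 and 0.08 on the operated MCD arrays without agonist. Try5, a pancreatic trypsinogen, was below background on all baseline arrays and at -0.75, -2.32, -4.78 and -5.93 after surgery, so that operated livers 1 and 2 carried it and liver 4 did not. It was at least 8.63-fold higher (adjusted p = 0.033), and Try4 at least 7.13-fold (adjusted p = 0.025). Both lost their call in 6 of the 8 fits without 1 array, and the Try4 probe also matches Try5. With all arrays both lost it with normexp correction, in the processed table and with only the groups compared in the fit, where Try4 came down to 0.22 (highest adjusted p 0.83) and Try5 to 0.41 (0.63); Try5 also lost it with quantile normalization and with dim probes kept. Cela1, an elastase, rose from -2.96, -2.93, -1.79 and -2.35 to -0.47, -0.27, -0.95 and -1.02 (1.83 ± 0.35, adjusted p = 0.0014), without overlap. Of 8 mesothelial markers 2 rose with the agonist and 0 on standard diet. In the MCD contrast 2 of the 8 rose, read against 6.50% of all genes. Msln, the surface glycoprotein mesothelin, was at -2.54, -1.45, -2.42 and -5.72 before and -0.36, -0.07, 0.37 and 0.97 after surgery, a rise of 3.26 ± 0.92 (adjusted p = 0.023) that was lost without baseline liver 4 or operated livers 3 or 4 (highest adjusted p 0.12). Among the operated livers the pancreatic mean was highest in liver 1, and the mesothelial and neutrophil means were highest in liver 4. The part of such tissue in the other results was not tested.

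The falls were led by Krt23, an acidic keratin that appears in diseased liver. Its levels were 3.31, 4.63, 3.16 and 3.41 before and -0.38, -0.22, -0.51 and 0.18 after surgery. All operated livers lay far below all baseline livers, and the fall was 14.5-fold (-3.86 ± 0.66, adjusted p = 0.00055). The operated livers lay near the level of the standard-diet livers, whose mean was 0.53 before surgery and which ranged from -1.06 to 0.36 after it. With the agonist Krt23 differed by -0.07 over surgery (adjusted p = 0.96), and the difference of 3.79 between the contrasts with and without agonist passed (adjusted p = 0.043). Epcam, an adhesion molecule of bile duct and progenitor cells, fell from between -2.29 and -1.58 to between -5.38 and -3.56 (-2.28 ± 0.59, adjusted p = 0.013), with the call lost without operated liver 1 (adjusted p = 0.06).

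Other markers of bile duct and progenitor cells went the other way. Of 17 tested, 2 rose and 2 fell, where 6.50% of all genes rose and 3.00% fell, and the median was -0.63. Gpc3, a glypican of fetal liver, rose by 2.48 ± 0.66 (adjusted p = 0.016, but 0.052 without baseline liver 4 and 0.19 in the processed table), and Prom1, a membrane protein of progenitor cells, by 2.59 ± 0.83 (adjusted p = 0.046, lost without any single array). Afp, the fetal serum protein, was between 1.26 and 2.21 after surgery, against 1.82 to 2.52 before (-0.40 ± 0.48, adjusted p = 0.66). The list was therefore mixed, with no direction shared by its members.

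Gadd45a, a growth arrest gene induced by DNA damage and stress (probe chr6:66985376-66985435), had levels of 3.11, 2.23, 3.11 and 2.21 before and -0.03, 0.90, -0.78 and -1.03 after surgery. The groups did not overlap, and Gadd45a fell 7.49-fold (-2.90 ± 0.63, adjusted p = 0.0037). At baseline Gadd45a was 2.45 higher on MCD than on standard diet, a contrast that shares the baseline MCD arrays. Cdkn1a, which encodes the cell cycle inhibitor p21 and answers to the same stresses, was at -0.12 to 1.95 before and 0.76 to 1.57 after surgery, with overlapping groups (0.48 ± 0.73, adjusted p = 0.74). Among 22 genes of cyclin D, CDK inhibitors and p53 targets 1 rose and 1 fell, where 6.50% of all genes rose and 3.00% fell.

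Slc26a4, the anion exchanger pendrin, fell from -0.99, -1.72, -0.01 and -1.44 to -5.67, -4.59, -4.66 and -4.43, where 1 of the 4 operated arrays showed it above background (-3.80 ± 0.71, adjusted p = 0.0011). Clec2d, a C-type lectin that binds an NK cell receptor, stood at 1.52, 2.84, 2.61 and 3.48 before and -0.18, -0.57, -0.04 and 0.25 after surgery. It fell by 2.75 on the log2 scale (-2.75 ± 0.44, adjusted p = 0.00033), and on standard diet as well (-1.55, adjusted p = 0.019). Its neighbour in the family, Clec2h, fell with more scatter (-3.61 ± 0.98, adjusted p = 0.019), and lost the call without baseline liver 4 or operated livers 1 or 2 (highest adjusted p 0.08), with normexp correction and in the processed table (highest adjusted p 0.14). Col27a1, a fibrillar collagen, fell from between -1.59 and -1.06 to between -4.56 and -3.62 (-2.65 ± 0.42, adjusted p = 0.00030), and also on standard diet (-1.99) and with the agonist (-1.81). Cib3, a calcium-binding protein, fell from 3.16, 4.76, 3.23 and 4.57 to 0.33, 0.36, 1.68 and 2.44 (-2.73 ± 0.76, adjusted p = 0.021), with the call lost without baseline livers 2 or 4 or operated livers 1 or 2 (highest adjusted p 0.07). N6amt1, a methyltransferase subunit, fell by 3.51 on the log2 scale at its brightest probe (-3.51 ± 0.35, adjusted p = 1.2e-06), while its other probe pointed up.

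**Figure D2:**
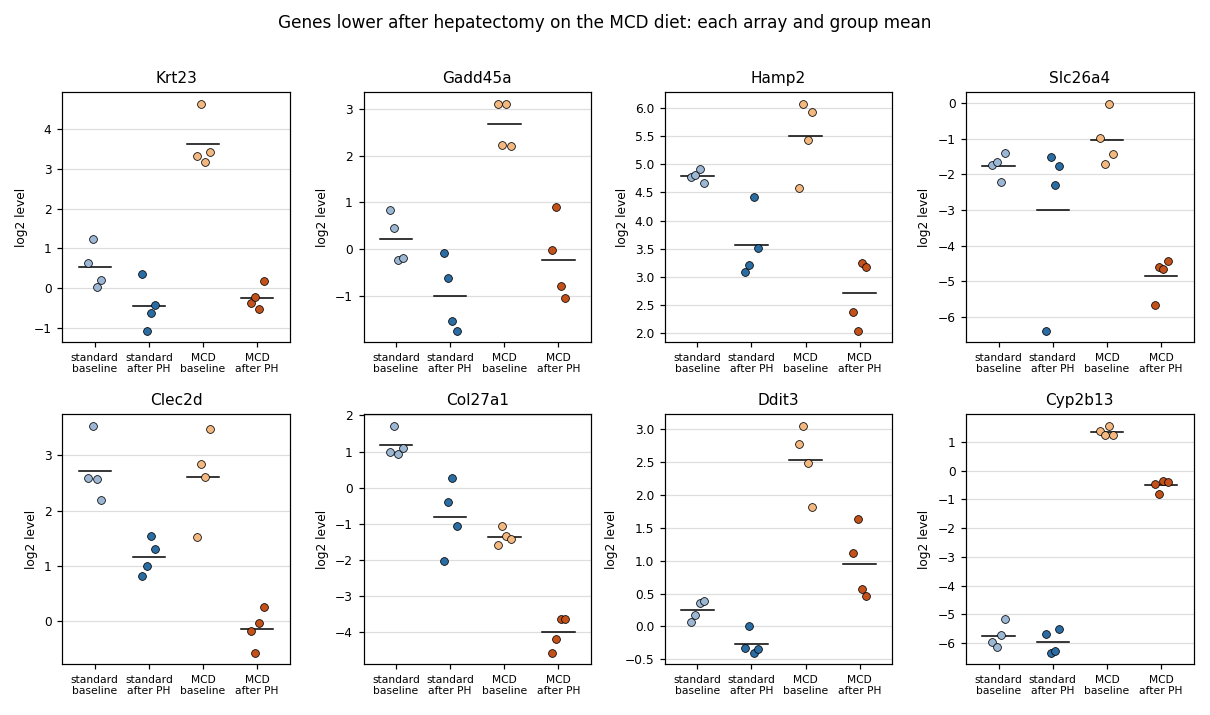
Log2 level, relative to each array's 75th percentile, of 8 genes that fell after hepatectomy on MCD diet, with one dot per liver and a bar at the mean of the 4 livers, for standard and MCD diet before and after partial hepatectomy (PH). Krt23 stands between 3.16 and 4.63 in the baseline MCD livers and between -0.51 and 0.18 in the operated ones, near the standard-diet livers; Cyp2b13 falls in the operated MCD livers but stays far above both standard-diet groups.

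Few mitosis genes passed on MCD diet, whereas 14 of 26 differed between the diets in their contrast. Of the 26 tested on MCD diet, 0 rose and 2 fell, Cdc20 and Kif20a, where 3.00% of all genes fell; 25 of 26 differences were negative with a median of -1.08, and 10 had an unadjusted p under 0.05. On standard diet 21 of the 26 rose (6.32% of all genes did) and 0 fell, with a median of 2.08. As a diet-by-hepatectomy difference 14 of 26 passed, all negative, against 0.985% of all genes that passed as negative, and the median was -2.99 beside 0.08 over all genes. At baseline 23 of the 26 were higher on MCD than on standard diet (10.7% of all genes were), in a contrast that shares the baseline MCD arrays. The mean of the list was 1.39, 1.53, 1.15 and -0.03 on the baseline MCD arrays and -0.02, 0.21, -0.30 and -0.01 on the operated ones. On standard diet it was -1.80 to -1.22 before and 2.24, 0.11, -0.91 and 1.00 after surgery. Baseline MCD liver 4 thus lay with the operated MCD livers, and the operated standard-diet livers were far apart from each other, liver 1 being the highest and liver 3 the lowest.

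These counts moved with single arrays. The number of mitosis genes that passed as a diet-by-hepatectomy difference was 6 without operated standard-diet liver 1, 7 without operated standard-diet liver 4 or baseline MCD liver 3, and 22 without operated standard-diet liver 3. It was 8 without operated MCD liver 1, and 9 without baseline standard-diet liver 1, baseline MCD livers 1 or 2, or operated MCD liver 3. In the MCD contrast 0 genes fell without baseline MCD liver 1 or operated MCD liver 3. Of 29 genes of DNA replication, which act earlier in the cycle, 0 passed in the MCD contrast (limma, 1 at an unadjusted p under 0.05), with a median of -0.19. On standard diet 7 rose and 1 fell, where 6.32% of all genes rose and 7.45% fell.

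Cdc20 activates the anaphase-promoting complex and so starts chromosome separation. Its levels were 2.80, 3.11, 2.75 and 0.55 before and 0.22, 0.98, -0.52 and -0.21 after surgery on MCD diet. The groups overlapped through baseline liver 4, and Cdc20 fell by 2.18 on the log2 scale (-2.18 ± 0.70, adjusted p = 0.045), a call that 6 of the 8 fits without 1 array did not keep (highest adjusted p 0.13), nor the fits with quantile normalization or with dim probes kept. On standard diet it rose by 2.87 (adjusted p = 0.0075), and the difference between diets was -5.05 (adjusted p = 0.0096). Kif20a, a kinesin of the central spindle, was at 0.78, 0.09, 0.28 and -0.95 before and -1.62, -1.73, -2.43 and -2.26 after surgery. It fell by 2.06 on the log2 scale without overlap (-2.06 ± 0.55, adjusted p = 0.017), lost the call without baseline liver 1 or operated liver 3 (highest adjusted p 0.06), and differed between diets by -4.05 (adjusted p = 0.0094). Mki67, the proliferation antigen Ki-67, stood at 1.64, 1.60, 1.44 and 0.20 before and 0.60, 0.60, 0.28 and 0.83 after surgery, with overlapping groups (-0.64 ± 0.63, adjusted p = 0.58). On standard diet Mki67 rose by 2.34 (adjusted p = 0.015), and the difference between diets of -2.98 did not pass (adjusted p = 0.063).

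Among the genes named for the size of their fall or of their difference between diets were further spindle and division genes, which, being chosen so, add no support to the list. Ckap2l, a spindle protein, fell from -1.96, -2.29, -2.73 and -4.44 to -5.69, -5.62, -6.01 and -4.81 on MCD diet (-2.68 ± 0.70, adjusted p = 0.014, but 0.053 without baseline liver 1), rose by 2.45 on standard diet (adjusted p = 0.020) and differed between diets by -5.13 (adjusted p = 0.0094). Kifc1, a minus-end kinesin of the spindle, was well above background on all baseline MCD arrays and on no operated one, and was at least 8.13-fold lower after surgery (adjusted p = 0.0019). Ska1, a kinetochore protein, was at least 3.98-fold lower (adjusted p = 0.037), and Cdca3, a trigger of mitotic entry, fell by 1.57 on the log2 scale (-1.57, adjusted p = 0.048). Ska1 lost its call in 6 and Cdca3 in 5 of the 8 fits without 1 array (highest adjusted p 0.12 and 0.18). With all arrays, Ska1 lost it with normexp correction and when dim probes were kept (highest adjusted p 0.10), and Cdca3 in every other setting tried except outlier spots kept (highest adjusted p 0.09). Their differences between diets were -4.56 (adjusted p = 0.015) and -3.65 (adjusted p = 0.0099). Ccnd1, cyclin D1, which opens the cycle, was at 4.83 to 5.98 before and 4.68 to 5.81 after surgery (-0.26 ± 0.48, adjusted p = 0.79).

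Many mitosis genes share a promoter layout, with CCAAT boxes that bind the factor NF-Y and the cell cycle homology element TTTGAA, through which the DREAM and MuvB complexes act. The promoters below are those of the 3 list members that follow Kif20a in order of adjusted p in the MCD contrast, from RefSeq on GRCm38.p6: Cdc20 (chr4:118437314-118437493, minus strand), Kif4 (chrX:100625915-100626094, plus strand) and Cdk1 (chr10:69352883-69353062, minus strand). Each runs 5′ to 3′ from 150 bases before the start of transcription to 30 bases into the transcript. Capitals mark CCAAT, read as ATTGG where it lies on the other strand, and TTTGAA.

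Cdc20: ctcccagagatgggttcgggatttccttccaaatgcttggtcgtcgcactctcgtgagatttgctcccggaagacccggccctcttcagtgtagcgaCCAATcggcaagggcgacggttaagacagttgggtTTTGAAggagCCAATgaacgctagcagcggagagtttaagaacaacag

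Kif4: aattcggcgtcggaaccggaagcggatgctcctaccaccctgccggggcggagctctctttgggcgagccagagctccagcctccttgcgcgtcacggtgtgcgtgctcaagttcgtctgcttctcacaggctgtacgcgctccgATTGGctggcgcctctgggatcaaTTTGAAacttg

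Cdk1: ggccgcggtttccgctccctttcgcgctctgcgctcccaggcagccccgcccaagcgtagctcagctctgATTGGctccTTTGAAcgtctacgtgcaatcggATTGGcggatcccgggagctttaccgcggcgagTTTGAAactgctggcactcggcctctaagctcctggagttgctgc

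In Cdc20 CCAAT begins at positions -53 and -8 from the start and TTTGAA at -18. In Cdk1 CCAAT lies on the other strand at -80 and -48, and TTTGAA at -71 and -15. Kif4 holds CCAAT on the other strand at -5 and TTTGAA at 20. With both strands searched in windows of 180 bases, CCAAT was found in 20 of 23 promoters of the mitosis list (87.0%, 21 genes), against 27.0% of all 32851 promoters. TTTGAA was found in 15 of the 23 (65.2%, against 10.4%) and both motifs in 14 (60.9%, against 2.89%). A match is a sequence of letters and says nothing of binding in these livers. Kif4 and Cdk1 themselves did not pass in the MCD contrast (adjusted p = 0.12 for both).

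**Figure D3:**
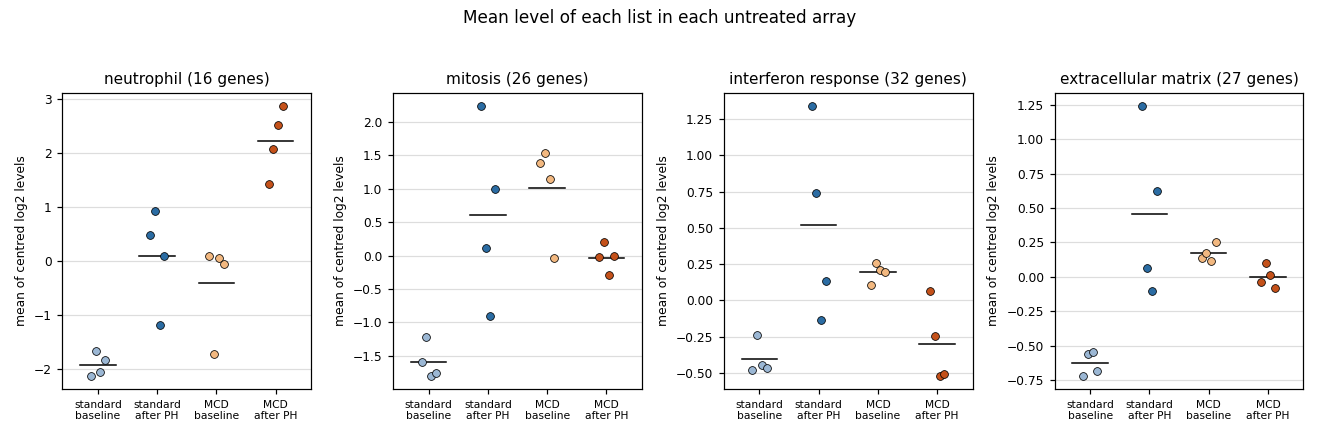
Mean log2 level of the members of 4 gene lists, each gene centred first, by group, with one dot per liver. The neutrophil mean is 1.42 to 2.87 in the operated MCD livers against -1.73 to 0.08 in the baseline ones, while the mitosis mean is -0.30 to 0.21 after and -0.03 to 1.53 before surgery; the operated standard-diet livers range from -0.91 to 2.24 for mitosis.

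Interferon-response genes, which are switched on by type I and type II interferons, gave mostly negative differences on MCD diet. Of 32 members 0 rose and 1 fell, a share near the 3.00% of all genes that fell. Of the differences 26 were negative, and the median was -0.51. Without overlap 10 members were lower, a share to be read against 8.29% of all genes. On standard diet 8 rose (6.32% of all genes did), and the median was 1.00. As a difference between diets 10 passed, all negative, against 0.985% of all genes, with a median of -1.47. That count was 1 without operated standard-diet liver 1, which stood highest for this list too, and 2 without MCD liver 3 of either group. Gbp6, an interferon-induced guanylate-binding GTPase whose probe is shared with a close copy, was at 0.40, -0.26, 0.19 and 0.04 before and -1.33, -1.24, -1.60 and -1.26 after surgery. Its groups did not overlap, and Gbp6 fell by 1.45 on the log2 scale (-1.45 ± 0.44, adjusted p = 0.033) but lost the call in 7 of the 8 fits without 1 array (highest adjusted p 0.08). Its difference between diets of -2.52 passed (adjusted p = 0.028).

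Dendritic cell and MHC class II markers, which stand for antigen presentation, were compared in the same way. Of 12 tested, 0 rose and 2 fell on MCD diet (median -0.24), where 3.00% of all genes fell. On standard diet 7 rose (median 1.30), where 6.32% of all genes did. As a difference between diets 4 passed, all negative (median -1.79), against 0.985% of all genes. The mean of the list on standard diet was -1.23 to -0.39 before and 1.09, 0.11, -0.30 and 0.12 after surgery. Operated standard-diet liver 1 was thus the highest. Cd209a, a lectin of monocyte-derived dendritic cells, was at -2.17, -1.75, -1.99 and -2.27 before and -3.24, -3.95, -4.26 and -3.97 after surgery. It fell by 1.81 on the log2 scale without overlap (-1.81 ± 0.46, adjusted p = 0.011), kept the call with each array left out, and differed between diets by -2.55 (adjusted p = 0.033). Clec9a, the dead-cell receptor of cross-presenting dendritic cells, fell by 1.46 on the log2 scale (-1.46 ± 0.46, adjusted p = 0.040), differed between diets by -2.67 (adjusted p = 0.028), and lost the call in 7 of the 8 fits without 1 array (highest adjusted p 0.11).

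Macrophage and matrix genes gave fewer calls on MCD than on standard diet. Of all genes 6.50% rose and 3.00% fell on MCD diet, 6.32% rose on standard diet, and 0.985% passed as a negative difference between diets. Kupffer cell markers gave 1 rise, Marco, and 1 fall, C6, among 13 on MCD diet (median 0.23). On standard diet 11 rose (median 1.80), and 1 of the 13 passed as a difference between diets. Markers of recruited macrophages gave 1 rise, Lpl, among 16 (median 0.26), against 9 on standard diet (median 1.91). None of them passed as a difference between diets (median -1.67). C6 is counted again below among male-biased genes, and Lpl among genes of fatty acid uptake and lipid droplets. The recruited macrophage mean on standard diet was -1.70 to -1.15 before and 2.51, -0.34, -0.83 and -0.04 after surgery. The Kupffer cell mean there was -1.41 to -0.81 before and 1.33, 0.68, -0.33 and 0.28 after it. Operated standard-diet liver 1 was thus the highest for both lists, and liver 3 the lowest. Trem2, a lipid receptor of macrophages in fatty liver, was at 2.82, 2.48, 2.28 and 2.89 before and 2.18, 2.20, 0.53 and 1.19 after surgery on MCD diet. Its groups did not overlap but the difference of -1.09 did not pass (adjusted p = 0.44), whereas it rose by 2.93 on standard diet (adjusted p = 0.018). The difference between diets of -4.02 had an adjusted p of 0.053. Of 27 genes of extracellular matrix 0 passed on MCD diet (limma, 5 at an unadjusted p under 0.05), with a median of -0.21, while 13 rose on standard diet and 5 passed as a negative difference between diets (median -1.24). Col1a1, the main fibrillar collagen of scar, was at 0.65, 0.88, 1.17 and 0.89 before and 0.71, 0.82, 0.57 and -0.26 after surgery (-0.44 ± 0.64, adjusted p = 0.73). It rose by 2.77 on standard diet (adjusted p = 0.0051), and the difference between diets of -3.21 had an adjusted p of 0.0505. Timp1, an inhibitor of matrix proteases, did not pass on MCD diet although its groups did not overlap (1.35 ± 0.89, adjusted p = 0.37).

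Over all genes 348 (1.60%) passed as a positive and 214 (0.985%) as a negative difference between diets, 2.59% in all, with a median of 0.08. Under median scaling 49 were positive and 309 negative and the median was -0.17, so only differences well beyond such a shift are named. The total ran from 226 without operated standard-diet liver 4 to 795 without operated standard-diet liver 3. It was 246 and 367 without baseline standard-diet livers 1 and 4, 344, 268 and 329 without baseline MCD livers 1, 3 and 4, 233 without operated standard-diet liver 1, and 295 and 320 without operated MCD livers 1 and 3.

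Among the positive differences, Car4, a membrane-bound carbonic anhydrase, was the most even. Its levels on MCD diet were 2.00, 1.93, 2.01 and 1.80 before and 3.68, 3.80, 3.61 and 3.55 after surgery. Both groups were tight and far apart, and Car4 rose by 1.72 ± 0.31 (adjusted p = 0.00073), differing between diets by 2.20 (adjusted p = 0.0100). At baseline Car4 was lower on MCD than on standard diet (-2.01), and the operated MCD livers stood close to the standard-diet mean of 3.94. Ctso, a lysosomal cathepsin, rose from between -1.60 and -0.78 to between -0.36 and 1.07 (1.71 ± 0.40, adjusted p = 0.0061) and differed between diets by 2.51 (adjusted p = 0.019). Cela1 differed between diets by 3.23 (adjusted p = 0.0019), Cstdc5, a cystatin-family gene, by 3.71 (adjusted p = 0.039) and Hsd3b4, a steroid dehydrogenase whose probe is shared with a close copy, by 3.31 (adjusted p = 0.023). Cstdc5 and Hsd3b4 were each above background on 1 of 4 baseline and 4 of 4 operated MCD arrays, and rose by 3.01 ± 0.69 (adjusted p = 0.0055) and 2.49 ± 0.55 (adjusted p = 0.0041).

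Among the negative differences outside the cell cycle, Amz1, a metalloprotease, was at 0.20, 0.29, 0.12 and 0.57 before and -0.61, -0.91, -1.37 and -1.29 after surgery. It fell by 1.34 on the log2 scale without overlap (-1.34 ± 0.34, adjusted p = 0.011), rose by 1.99 on standard diet (adjusted p = 0.00051), and differed between diets by -3.34 (adjusted p = 0.0014). Scube3, a secreted glycoprotein, fell from between -4.12 and -1.91 to between -6.96 and -5.74 (-2.91 ± 0.80, adjusted p = 0.019) and differed by -4.57 (adjusted p = 0.030). Only 1 operated MCD array showed Scube3 above background, and the fall was lost without baseline liver 4 or operated liver 4 (highest adjusted p 0.08). It was also lost with normexp background correction (-0.80, adjusted p = 0.15) and when dim probes were kept (-0.29, adjusted p = 0.86), where the difference between diets became 0.67.

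The growth factors and receptors of liver regeneration were read 2 weeks after surgery. Of 34 tested 2 rose and 2 fell, where 6.50% of all genes rose and 3.00% fell, and the median was -0.29. Met, the receptor of HGF on hepatocytes, was at -0.33, -0.51, -0.43 and -0.56 before and 0.37, 0.59, 0.48 and 0.52 after surgery. The groups were narrow and did not overlap; Met rose 1.93-fold (0.95 ± 0.21, adjusted p = 0.0042), differed by -0.29 on standard diet (adjusted p = 0.38), and the difference between diets of 1.24 passed (adjusted p = 0.026). Its ligand Hgf was at -1.52 to -1.15 before and -2.07 to -1.12 after surgery (-0.10 ± 0.37, adjusted p = 0.90). Egf, a ligand of the EGF receptor, fell from -2.48, -2.73, -1.99 and -2.33 to -4.62, -3.82, -3.50 and -2.95 (-1.34 ± 0.32, adjusted p = 0.0082). Ccn1, a matricellular protein and target of YAP and TGF-beta, fell from 1.35, 1.18, 0.91 and 2.47 to -0.35, -0.36, -0.06 and -0.18 (-1.72 ± 0.42, adjusted p = 0.0086). Neither Egf nor Ccn1 overlapped between the groups. In the MCD contrast Met, Egf and Ccn1 kept their calls in every setting tried, which does not speak to the difference between diets of Met. Stat3, the transcription factor downstream of interleukin 6, rose by 0.78 ± 0.25 (adjusted p = 0.045) but lost the call without any single array (highest adjusted p 0.12).

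Neither receptor of the agonist given to other groups passed. Gcgr, the glucagon receptor, was at 7.02 to 7.62 before and 6.67 to 7.31 after surgery (-0.38 ± 0.24, adjusted p = 0.36). Glp1r, the GLP-1 receptor, lay near background at -4.78 to -3.56 before and -5.79 to -2.44 after surgery (0.49 ± 0.48, adjusted p = 0.58). These p-values do not show that the levels were the same.

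Genes of the integrated stress response are induced when amino acids or folding capacity run short. Of 23 tested 2 fell and 0 rose (median -0.28), where 3.00% of all genes fell and 6.50% rose. At baseline 14 had been higher on MCD than on standard diet (10.7% of all genes were), in a contrast that shares the baseline MCD arrays. Ddit3, the stress transcription factor CHOP, fell from 2.78, 3.06, 2.48 and 1.81 to 1.11, 1.63, 0.58 and 0.46 (-1.59 ± 0.37, adjusted p = 0.0063). The groups did not overlap and the call was kept in every setting. With the agonist Ddit3 differed by 0.60 (adjusted p = 0.31), and the difference of 2.18 between the contrasts with and without agonist passed (adjusted p = 0.036). Gdf15, a stress-induced hormone, fell by 1.70 on the log2 scale (-1.70 ± 0.55, adjusted p = 0.047), though 6 of the 8 fits without 1 array lost it (highest adjusted p 0.12), and fell by 2.35 on standard diet (-2.35, adjusted p = 0.0056). Asns, asparagine synthetase, was at 4.74 to 5.45 before and 5.63 to 6.01 after surgery (0.76 ± 0.41, adjusted p = 0.26), and the hormone Fgf21 at 3.17 to 5.40 and 3.42 to 4.08 (-0.75 ± 0.90, adjusted p = 0.66). Nupr1, a stress-induced chromatin protein, was split among the operated livers, with 5.92 and 5.72 in livers 1 and 2 and 3.32 and 3.15 in livers 3 and 4, against 4.86 to 7.15 before surgery (adjusted p = 0.16).

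In the pathway that the diet starves, 3 of 25 genes of methionine, choline and polyamine metabolism fell and 0 rose. Of all genes 3.00% fell, and the median of the list was -0.31. Bhmt, which makes methionine from betaine and homocysteine, was at 9.04, 9.13, 9.42 and 9.29 before and 7.03, 7.94, 8.71 and 8.67 after surgery. All operated livers were lower, livers 1 and 2 the most, and Bhmt fell by 1.13 on the log2 scale (-1.13 ± 0.34, adjusted p = 0.031). Dmgdh, the next enzyme on the choline side, fell from 6.41, 6.69, 6.86 and 6.75 to 4.95, 5.76, 5.96 and 6.02 (-1.01 ± 0.27, adjusted p = 0.016), and Gnmt, which uses up S-adenosylmethionine, from between 7.98 and 8.56 to between 7.17 and 7.56 (-0.83 ± 0.25, adjusted p = 0.033). Without 1 array the calls of Bhmt (5 of 8 fits), Gnmt (7 of 8) and Dmgdh (without operated liver 1) were lost, with highest adjusted p of 0.15, 0.11 and 0.08. The methionine adenosyltransferases Mat1a (-0.21 ± 0.31, adjusted p = 0.74) and Mat2a (-0.52 ± 0.29, adjusted p = 0.27) did not pass.

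Lipid genes gave few calls. Of 26 genes of fatty acid uptake and lipid droplets 2 rose, Lpl and Cd36, a share near the 6.50% of all genes that rose. Lpl, the lipase that frees fatty acids from lipoproteins, went from 1.92, 1.25, 1.89 and 2.64 to 4.08, 4.08, 4.27 and 4.13, a rise of 2.21 ± 0.58 (adjusted p = 0.015, but 0.056 without baseline liver 2 and 0.059 with normexp correction). Cd36, a fatty acid transporter, went from 2.04, 1.64, 2.57 and 2.41 to 3.47, 3.60, 3.65 and 3.92, a rise of 1.49 ± 0.43 (adjusted p = 0.025), lost without baseline livers 1 or 2 or operated livers 3 or 4 (highest adjusted p 0.09). Neither overlapped between groups, and both rose on standard diet (2.58 and 1.49). Among 21 lipogenic genes 0 passed (limma, 5 at an unadjusted p under 0.05; median -0.46). Scd1, the stearoyl-CoA desaturase, overlapped between the groups (0.42 ± 0.53, adjusted p = 0.68), and Srebf1, the regulator of lipogenesis, was lower without overlap but did not pass (-0.79 ± 0.36, adjusted p = 0.18). No gene passed among 30 of fatty acid oxidation (3 at an unadjusted p under 0.05, median 0.04, Ppara at -0.02) or 25 of cholesterol synthesis (3, median -0.41).

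Among 23 genes of bile acid synthesis and transport Slco1a4, a sinusoidal uptake transporter, fell (3.15 to 3.54 before, 1.04 to 2.90 after surgery, -1.42 ± 0.35, adjusted p = 0.0092), in every setting tried. Cyp7a1, the rate-limiting enzyme of bile acid synthesis, had overlapping groups and a difference of -1.66 ± 0.89 (adjusted p = 0.26). Of 25 xenobiotic P450 genes and regulators 1 fell, Cyp2c55 (-1.55 ± 0.42, adjusted p = 0.017, but 0.078 without operated liver 1). Pericentral markers, which mark hepatocytes around the central vein, leaned downwards. Of 14 tested 2 fell (3.00% of all genes did), 11 differences were negative, and the median was -0.83. One of the falls was Rgn, the calcium-binding lactonase regucalcin (-1.05 ± 0.32, adjusted p = 0.034), lost in 5 of the 8 fits without 1 array (highest adjusted p 0.12). Of 13 periportal markers 1 rose and 1 fell (median -0.14), where 6.50% of all genes rose and 3.00% fell. The fall, Pigr, was read by a low-complexity probe placed on another chromosome than the gene, so no value is given.

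Many liver genes differ between the sexes under control of growth hormone pulses, and the male-biased ones leaned further down after surgery. Of 24 male-biased genes 3 fell and 0 rose, where 3.00% of all genes fell. The median was -0.78, and 11 were lower without overlap (8.29% of all genes were). On standard diet 5 fell (7.45% of all genes did), with a median of -1.25. The mean of the list there was 1.93 to 2.45 before and -2.22, 1.91, 1.81 and 1.16 after surgery. Operated standard-diet liver 1 thus stood far below the others. Hsd3b2, a 3-beta-hydroxysteroid dehydrogenase, fell from 4.68, 4.16, 4.96 and 4.97 to 3.35, 3.31, 3.69 and 3.59 (-1.21 ± 0.26, adjusted p = 0.0034). Susd4, a complement inhibitor, fell from between 1.06 and 1.81 to between -1.25 and -0.66 (-2.29 ± 0.62, adjusted p = 0.018, but 0.054 without baseline liver 3). C6, a component of the membrane attack complex, fell by 1.36 on the log2 scale (-1.36 ± 0.41, adjusted p = 0.032), lost in 6 of the 8 fits without 1 array (highest adjusted p 0.11). Cyp4a12a, a male-specific fatty acid hydroxylase whose probe also matches Cyp4a12b, and Elovl3, a fatty acid elongase, were lower without overlap but did not pass (-2.03 ± 0.90, adjusted p = 0.16, and -2.90 ± 1.34, adjusted p = 0.18).

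Female-biased genes, of which 15 were higher on MCD diet at baseline (10.7% of all genes were), were mixed after surgery. Of 20 tested 2 rose and 1 fell, where 6.50% of all genes rose and 3.00% fell. One of the rises was Prom1, already counted above among the bile duct and progenitor markers. Cyp2b13, a female-specific P450, was at 1.38, 1.24, 1.57 and 1.26 before and -0.44, -0.81, -0.35 and -0.41 after surgery. The groups were tight and apart, and Cyp2b13 fell by 1.87 on the log2 scale (-1.87 ± 0.30, adjusted p = 0.00033), with a difference between diets of -1.65 (adjusted p = 0.036). On standard diet it lay near background throughout, at -6.34 to -5.52 after surgery, so that little fall was measurable there. Its relative Cyp2b9 did not pass (-0.73 ± 0.60, adjusted p = 0.49). Slc22a26, an organic anion transporter, rose by 2.27 ± 0.68 (adjusted p = 0.034), lost in 6 of the 8 fits without 1 array (highest adjusted p 0.10), and Sult1e1, the estrogen sulfotransferase, did not pass (1.32 ± 1.43, adjusted p = 0.62).

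Lists of general cell functions showed few or no calls. None passed in the lists of heat shock (18 tested, 0 at an unadjusted p under 0.05, median -0.07), ER chaperones (19, 4, median 0.01), NRF2 targets and glutathione (23, 4, median -0.13), immediate early genes (20, 5, median -0.44), circadian clock (16, 2, median -0.41), amino acid catabolism and urea cycle (30, 5, median -0.24), and glycolysis, gluconeogenesis and glycogen (25, 2, median -0.13). Of 28 nuclear-encoded genes of the respiratory chain 2 fell, where 3.00% of all genes did, and the median was -0.43. Of 18 reference genes 1 fell, with a median of -0.24, which bears on the reading of medians of that size.

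**Figure D4:**
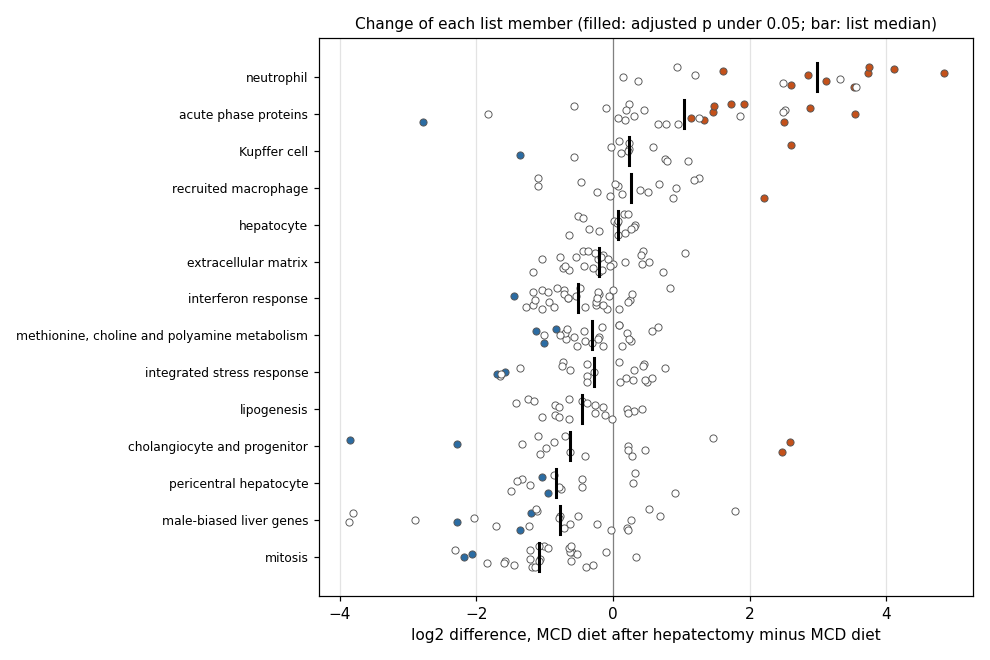
Log2 difference, operated minus baseline livers on MCD diet, of each member of 14 gene lists, with filled dots for genes that passed (adjusted p under 0.05), open dots for the others and a bar at the list's median. Neutrophil markers (median 2.98) and acute phase proteins (median 1.04) lie to the right of 0, and mitosis genes (median -1.08) and male-biased genes (median -0.78) to the left.

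The MCD contrast and that on standard diet share no array but share both scan sessions. Of the 1412 genes that rose on MCD diet, 296 also rose on standard diet (21.0% of the MCD rises and 21.6% of the 1373 standard-diet rises, where 6.32% of all genes rose), and 21 fell there. Of the 653 that fell, 186 also fell on standard diet (28.5% of the MCD falls and 11.5% of the 1619 standard-diet falls, where 7.45% of all genes fell), and 14 rose. With the agonist, 193 of the 1412 rose as well (13.7%, and 23.7% of the 813 rises there, where 3.74% of all genes rose), and 10 fell. Of the 653 falls, 186 were shared with the agonist contrast (28.5%, and 13.5% of its 1373 falls, where 6.32% of all genes fell), and 5 rose. In either direction 10.1% of all genes were called with the agonist. The part of the shared sessions in these shares was not tested. The MCD contrasts with and without agonist differed for 249 genes (1.15%). With the agonist 63 (0.290%) were more positive and 186 (0.856%) more negative. The agonist arrays lie in row 2 of slide 2 before and row 2 of slide 4 after surgery, so slide and row do not drop out. Nor does the longer agonist treatment of the operated mice. Median scaling turned these counts into 98 and 24, so the balance of directions depends on the scaling. It also gave 1726 rises and 826 falls on standard diet, and 1082 and 629 with the agonist.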

How the data were processed

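Per the labels' protocols, total RNA came from Trizol extraction followed by RNeasy clean-up, with quality read on a Bioanalyzer. The arrays carry 62976 spots and 1 dye (Cy3). Per the file headers they were quantified with Feature Extraction 10.7.3.1, whose processed signal, a linear intensity, is already background-subtracted and detrended, and probes are placed on mm9. The deposited value table is in log2 units, as its range shows, and the submitters' processing notes name limma without a version. Its column medians are 6.48 at baseline and 6.95 to 6.96 after hepatectomy, and its centring is unknown. Best rank correlations of its columns with scanner arrays were 0.954 to 0.997, while the exchanged columns reached 0.868 to 0.939 with their own arrays, so the table served only as an alternative.

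Control spots and outlier spots were dropped (0.313% of spots on the 8 MCD arrays were outliers), saturated spots, at most 2 per array, were kept, and each array's 75th percentile was subtracted from log2 of the processed signal. Spots of the same probe were averaged. Testing required a probe to exceed background on all 4 arrays of some group, and the probe with the highest mean over the 32 arrays stood for its gene. A RefSeq table of GRCm38.p6 gave current symbols for 31246 spots through accessions, 3448 through symbols and 312 through synonyms; the other 24299 have the name in the file. One limma fit (R 4.3.3, limma 3.58.1, empirical Bayes) covered the 8 groups, and a call is a Benjamini-Hochberg adjusted p under 0.05. For a gene that no array of a group detects, "at least N-fold" sets the mean of the brighter group against a floor in the dimmer one, which is on each array the larger of that probe's value and the dimmest detected probe. The number of arrays limits the precision.

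Named genes are the 12 largest rises and falls without overlap, the 8 largest differences between diets each way that also pass on MCD diet, up to 4 members each way per list by adjusted p, and a fixed set such as Mki67, Afp and Mat1a, without clone names; some that qualify are not reported here. The comparison and the gene lists were chosen with earlier results of these data known, so no list is independent evidence. The fit was tested on simulated data. Alternatives were normexp background correction, scaling to the median or by quantiles, keeping dim probes, averaging a gene's probes, keeping outlier spots, the replicate number as a block, the processed table placed at its matching arrays, fewer groups in the fit, and each array left out in turn. Positions of probes within exons or UTRs were not determined.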

Additional observations from a re-analysis of the deposited data

Results flagged for a closer look

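Within groups of 4 livers, Dixon's test marked 9 single values in the 192 groups tested as far from the other 3, about as often as chance does (1 in 20 groups). After hepatectomy on MCD diet these were Dpp6 in liver 2 (level 6.26), Retnlg in liver 4 (1.45), Marco in liver 4 (6.44) and Gnmt in liver 1 (7.17). In the baseline MCD livers they were Krt23 (4.63) and Chil3 (-1.70) in liver 2, Scd1 in liver 3 (5.70), and Cdc20 (0.55) and Mki67 (0.20) in liver 4, where both mitosis genes were low together.

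For some genes the change after surgery differed between the diets (interaction term of the limma fit). These values compare changes, not levels. Statements that a named gene kept or lost its call refer to the MCD contrast. How far each gene's difference between diets held with single arrays left out is not reported here. The change was more positive on MCD diet for Cstdc5 (3.71), Hsd3b4 (3.31), Cela1 (3.23), Ctso (2.51), Car4 (2.20), Fga (1.86) and Met (1.24). It was more negative on MCD diet for the division genes Ckap2l (-5.13), Cdc20 (-5.05), Ska1 (-4.56), Kif20a (-4.05) and Cdca3 (-3.65). The same held for Scube3 (-4.57), Amz1 (-3.34), Gbp6 (-2.52) and Cyp2b13 (-1.65), and for the dendritic cell genes Clec9a (-2.67) and Cd209a (-2.55). With the agonist the change after surgery on MCD diet was more positive for Krt23 (3.79), N6amt1 (2.19) and Ddit3 (2.18).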

How the results depend on the processing

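Depth is not the limit on arrays, but genes near background have only bounds, and the 2065 calls on MCD diet include 63 rises and 50 falls with 1 group not above background. The count stayed within 1.5 times under median scaling, quantile normalization, no filter, the mean over probes, outlier spots kept and fewer groups in the fit. It was 1284 with normexp correction and 3585 (851 higher, 2734 lower) in the processed table, and 1397 to 1743 with 1 array left out. On standard diet 2992 calls became 4617 with normexp, 5029 in the table and 1066 with only the groups compared (1576 to 2985 with 1 array left out); with the agonist 2186 became 8324, 7076 and 985, and 5363 without a filter (1216 to 2206). Differences between diets went from 562 to 1485 with normexp and 358 with median scaling (226 to 795), and those with the agonist from 249 to 4366 with normexp, 122 with median scaling, 141 with quantile normalization, 2573 without a filter and 964 in the table (52 to 492). Where the number of genes tested or of arrays did not itself change, the cause was not tested.

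Replicate numbers do not pair the livers: deviations of same-numbered MCD livers correlated at -0.03 to 0.03. With the replicate number as a block the MCD contrast gave 2113 calls, that on standard diet 3067, and the difference between diets 553.

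Of the 70 named genes called on MCD diet, 34 kept their call in every setting, 37 with each array left out, and 42 in every setting that kept all arrays. With all arrays kept, Bhmt, Cdca3, Clec2h, Dmgdh, Epcam, Gbp6, Gdf15, Gnmt, Lpl, Orm1, Prom1, Saa1, Scube3, Ska1, Stat3, Try4 and Try5 lost their call with normexp correction. Cdca3, Prom1 and Stat3 lost their call with median scaling. Cdc20, Cdca3, Clec9a, Gdf15, Prom1 and Try5 lost their call with quantile normalization. Bhmt, C6, Cdc20, Cdca3, Chil3, Clec9a, Gbp6, Gdf15, Gnmt, Prom1, Rgn, Saa1, Scube3, Ska1, Slc22a26, Stat3 and Try5 lost their call without a filter. Cdca3, Cp, Gbp6 and Stat3 lost their call with probes averaged. Cdc20, Cdca3 and Stat3 lost their call with the replicate block. Cdca3, Clec2h, Dmkn, Gdf15, Gpc3, Orm1, Try4 and Try5 lost their call in the processed table. Bhmt, Cdca3, Dpp6, Gnmt, Id1 and Rgn lost their call with only the groups without agonist. Bhmt, Cdca3, Dpp6, Try4 and Try5 lost their call with only the groups compared. The sign changed for 2 values: Alb was at -0.60 (adjusted p = 0.048) in the processed table, and the diet-by-hepatectomy difference of Scube3 was 0.67 without a filter (adjusted p = 0.75).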
